A study of Mus musculus with 4 samples.

Results

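ERVL elements are a family of endogenous retroviruses, and the deposited counts hold 113 rows whose family is named exactly ERVL among 1153 transposable element families and 56488 rows in all. Members were taken by that family name alone, which leaves out the related ERVL-MaLR rows and uses no measured value. RNA was sequenced from AB2.2, a mouse embryonic stem cell (ESC) line grown on mouse embryonic fibroblast (MEF) feeders in serum medium with leukemia inhibitory factor, CHIR99021 and PD0325901. The control group had 2 libraries, and the lactate group had 2 libraries of cells held in 50 mM lactate for 24 h, so all 4 libraries share the line, the feeders and both inhibitors. The labels number the libraries 1 and 2 in each group without saying that they came from separate cultures, so the p-values measure only the spread between these libraries, which may be technical. AB2.2 is 1 line, and RNA was taken in bulk, so more cells in a given state and more RNA per cell cannot be told apart.

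An ERVL provirus has an internal part with the genes for its capsid and enzymes, and a long terminal repeat (LTR) at each end that holds the promoter. MERVL is the mouse family of this kind, and its rows here are MERVL-int for the internal part and MT2_Mm for the LTR. It is transcribed when the embryonic genome first becomes active at the 2-cell stage, where MT2_Mm LTRs also serve as promoters of neighbouring genes, and a small and changing share of cells in ESC cultures passes through a 2-cell-like state in which MERVL and the Zscan4 genes are active. Rows named MT2A, MT2B and MT2C belong to other mouse LTRs of this kind, RMER rows to rodent repeats, and most rows named MLT2, LTR or MER to repeats that entered mammalian genomes long ago and have largely lost their ability to move.

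Gene counts numbered between 18067562 and 19077885 per library, and transposable elements took 7.36% to 9.41% of all counts. Libraries numbered 1 had more of their gene counts on mitochondrial genes (5.48% in control, 5.72% in lactate) than libraries numbered 2 (2.43% and 2.82%), and also the larger share on transposable elements in each group. The part of these shares in the values below was not tested. All 10 ESC markers and all 20 feeder fibroblast markers passed the filter on low counts. ESC markers summed to 5193 and 5216 CPM in control and 5684 and 5588 in lactate, without overlap, with 6 markers higher and 4 lower. Fibroblast markers summed to 3392 and 3716 CPM in control and 4339 and 3986 in lactate. Without Fn1, which is not limited to fibroblasts, the fibroblast markers summed to 1006 and 1372 CPM in control and 1023 and 1144 in lactate, and the groups overlapped. Of the fibroblast markers, 10 were higher and 10 lower. The part of either marker set in the ERVL values was not tested. CPM here is a count scaled to the size of the library, taken from its gene counts and TMM factor. A family's count also depends on the number and length of its copies, so levels were compared between libraries and not between families.

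MERVL had the lowest p-values of the ERVL families between lactate and control. MERVL-int, the internal part that encodes the viral proteins, had 9842 and 11176 reads in control and 19630 and 23024 in lactate, or 568 and 588 CPM against 1054 and 1165. Both lactate libraries lay well above both control libraries, which were close to each other. The mean was 1.92 times as high in lactate, with a log2 fold change of 0.94 (SE 0.15, 95% interval 0.59 to 1.29). The adjusted p-value of 0.0535 by the quasi-likelihood test of edgeR and Benjamini-Hochberg adjustment over all 19593 rows tested missed the threshold of 0.05. DESeq2, the program that the paper used for its differential genes, was run here as an alternative on the same counts. It gave a log2 fold change of 0.92 and a Benjamini-Hochberg adjusted p-value of 0.00014. MERVL-int had the lowest p-value of the 932 transposable element rows tested, and its log2 fold change ranked 20 among them.

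The LTR of MERVL showed the same picture at a smaller size. MT2_Mm, which holds the MERVL promoter, had 1838 and 2006 reads in control and 3187 and 3563 in lactate, or 106.1 and 105.6 CPM against 171 and 180. Again the control libraries nearly coincided and the lactate libraries were both higher. The mean was 1.66 times as high, with a log2 fold change of 0.73 (SE 0.13, 95% interval 0.42 to 1.04) and an adjusted p-value of 0.0573 by the quasi-likelihood test of edgeR and Benjamini-Hochberg adjustment. DESeq2 gave it an adjusted p-value of 0.0097 at a log2 fold change of 0.71. Neither row changed more than 2-fold, so neither was called under the rule of the study, a more than 2-fold change at an adjusted p-value under 0.05. By log2 fold change MT2_Mm ranked 47 among the 932 transposable element rows tested. Of these rows, 144 reached 100 CPM in some library, which a row can do through the lactate libraries alone. Among the 144, MERVL-int ranked 2 and MT2_Mm ranked 4. ETnERV3-int and RMER16-int, rows outside ERVL, had ranks 1 and 3.

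**Figure D1:**
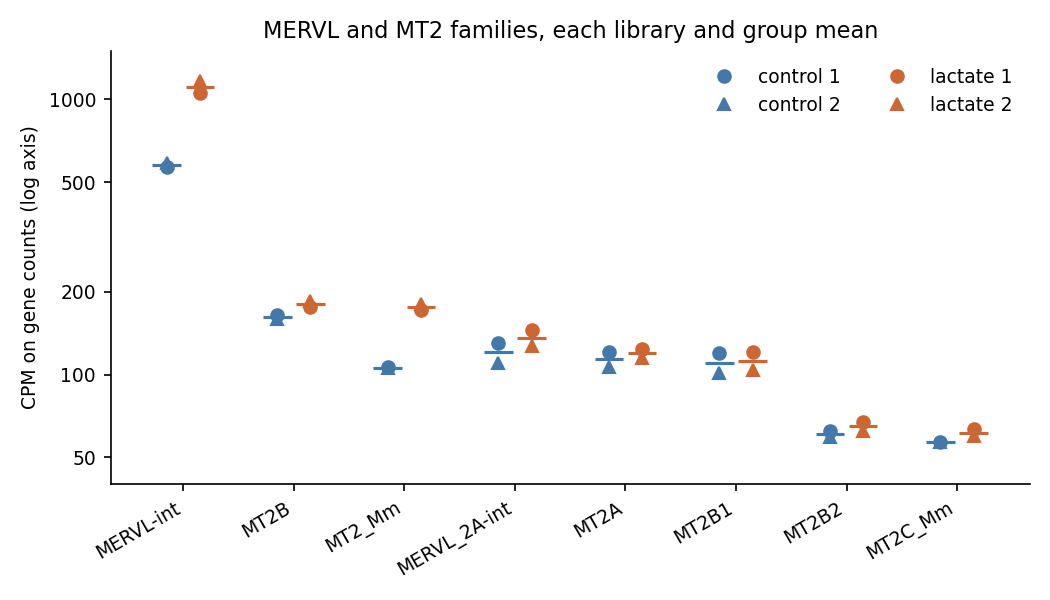
CPM on gene counts (log axis) of the 8 rows named MERVL or MT2 in each library, with circles for replicate 1, triangles for replicate 2 and lines for group means of n = 2. In MERVL-int and MT2_Mm the lactate points stand clear of the control points, and in the other 6 rows the group means differ by at most 1.13-fold.

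The other rows of the MERVL and MT2 type had log2 fold changes close to 0. MERVL_2A-int, a second internal part, had 131 and 110.2 CPM in control and 145 and 127 in lactate, with overlapping groups and a log2 fold change of 0.18 (SE 0.15). MT2B had 165 and 159 CPM in control and 176 and 184 in lactate, without overlap but with a log2 fold change of only 0.16 (SE 0.13). MT2C_Mm went from 57.1 and 56.8 CPM to 63.2 and 59.7, a log2 fold change of 0.11. MT2B2, MT2A and MT2B1 had log2 fold changes of 0.09, 0.07 and 0.02. All 6 were thus slightly higher with counts scaled on genes, but 4 of them (MT2A, MT2B1, MT2B2 and MT2C_Mm) were slightly lower with counts scaled on the transposable element rows themselves. None of the 6 had an unadjusted p-value under 0.05, and the 95% intervals of their log2 fold changes reached up to 0.54 for MERVL_2A-int and 0.47 for MT2B.

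Ratios within a library do not depend on how libraries are scaled. Reads on MERVL-int numbered 4.35 and 5.34 for each read on MERVL_2A-int in control and 7.29 and 9.14 in lactate. Reads on MT2_Mm numbered 0.881 and 0.988 for each read on MT2A in control and 1.38 and 1.57 in lactate. Both ratios were higher in each lactate library than in either control library, and 2 libraries against 2 cannot give an exact two-sided permutation p below 0.333. The ratio of MERVL-int to MT2_Mm reads was 5.35 and 5.57 in control and 6.16 and 6.46 in lactate, so the internal part differed by more than the LTR.

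Summed over all 113 rows, ERVL families had 2249 and 2119 CPM in control and 2918 and 2910 in lactate. The mean was 2184 ± 91.7 (SD, n = 2) in control and 2914 ± 5.83 (SD, n = 2) in lactate, a ratio of 1.33. MERVL-int and MT2_Mm together had 674 and 694 CPM in control and 1225 and 1346 in lactate, a ratio of 1.88. With these rows left out, the sum was 1575 and 1426 CPM in control and 1693 and 1564 in lactate, a ratio of 1.09 with overlapping groups. MERVL-int alone held 25.3% and 27.7% of ERVL reads in control, 36.1% in lactate replicate 1 and 40.04% in lactate replicate 2. As a share of all transposable element reads, ERVL rows held 2.25% and 2.66% in control and 2.82% and 3.46% in lactate. These sums are descriptions and were not tested.

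**Figure D2:**
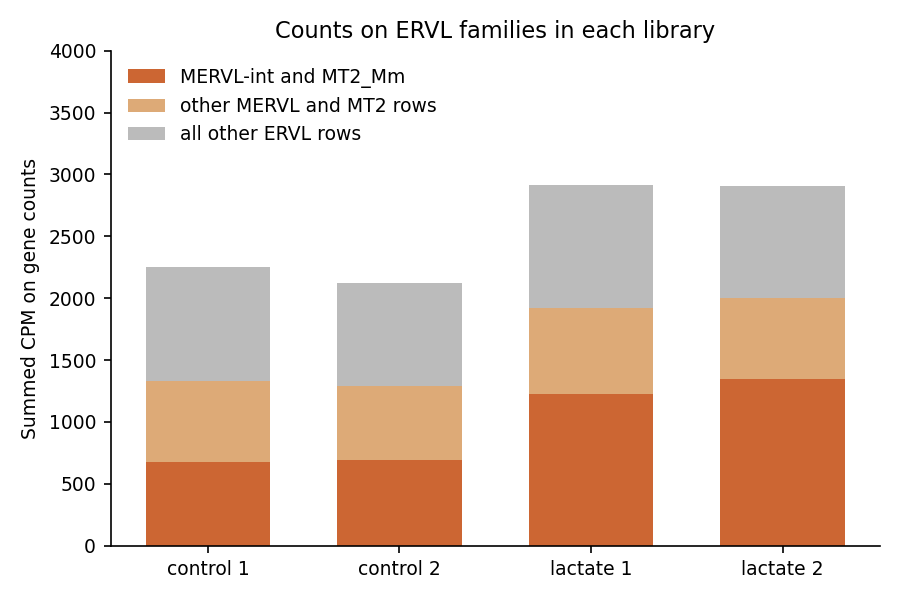
Summed CPM on gene counts of the ERVL rows in each of the 4 libraries, as stacked bars for MERVL-int with MT2_Mm, the other 6 MERVL and MT2 rows, and all other ERVL rows. The lowest block goes from 674 and 694 CPM in control to 1225 and 1346 in lactate, while the other blocks differ little between libraries.

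Of the 113 ERVL rows, 90 passed the filter on low counts and were tested. A row can pass through the libraries of 1 group alone, so counts over the tested rows are descriptions. Of the 23 rows that did not pass, 2 had no read in any library and none had more than 17 reads in a library. In these 23 rows the lactate total was above the control total in 12, below it in 4 and equal in 7. Among the tested rows 71 were higher and 19 lower in lactate. Their median log2 fold change was 0.21, against 0.02 over all rows tested. The split was 57 higher and 33 lower with counts scaled on transposable element rows, and 78 higher and 12 lower with gene totals alone.

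No ERVL row was called by edgeR's quasi-likelihood test, in a table where 0.796% of all rows tested were called, and none had an adjusted p-value under 0.05 alone, which 0.847% of all rows reached. At an unadjusted p-value under 0.05 edgeR gave 8 ERVL rows as higher (8.89% of those tested) and 0 as lower, against 11.4% higher and 10.8% lower over all rows tested. DESeq2 gave 2 rows, MERVL-int and MT2_Mm, an adjusted p-value under 0.05, against 1.73% of all rows that were higher by the same rule, and it called no ERVL row at more than 2-fold. Lactate libraries were both above the controls in 44 of the 90 ERVL rows tested, against 27.1% of all rows tested. They were both below the controls in 3, against 24.9%. The 3 rows were MER74B, LTR16A1 and LTR102_Mam, old mammalian LTRs with 9 to 70 reads in a library.

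**Figure D3:**
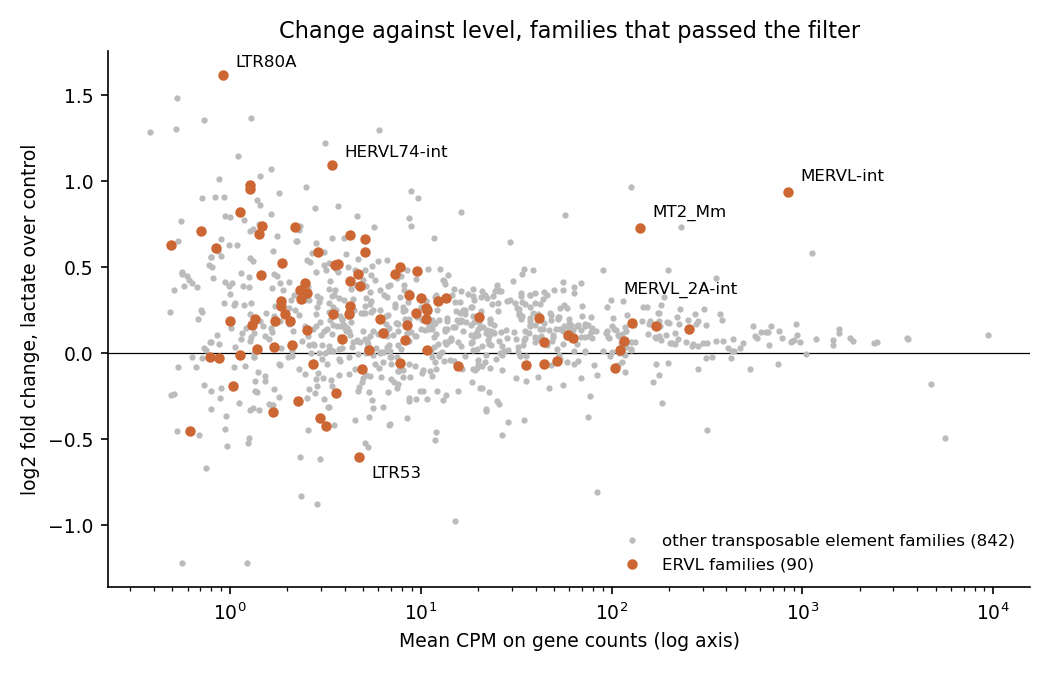
log2 fold change of lactate over control against mean CPM (log axis) for the 932 transposable element rows that passed the filter, with the 90 ERVL rows in orange and the other 842 in grey. MERVL-int and MT2_Mm stand high among the rows above 100 CPM, while the widest spread is at the lowest CPM.

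A positive median was shared by other transposable elements. Outside ERVL 638 of 842 rows tested were higher and the median log2 fold change was 0.13, and 4.99% had an unadjusted p-value under 0.05 and were higher. The median was 0.13 in ERVL-MaLR rows, 0.21 in ERV1, 0.08 in ERVK, which includes the intracisternal A particles, and 0.16 in LINE-1. By edgeR, 14.4% of ERV1 rows tested were higher at an unadjusted p-value under 0.05, more than in ERVL. That share was 2.22% in ERVL-MaLR, 5.26% in ERVK and 1.57% in LINE-1. Both lactate libraries lay above both controls in 41 of 97 ERV1 rows and 32 of 90 ERVL-MaLR rows. The same held in 51 of 266 ERVK rows and 13 of 127 LINE-1 rows. No family outside ERVL was called by edgeR either, and DESeq2 called 1, in ERVK.

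Split by part, all 12 internal rows tested were higher in lactate with counts scaled on genes (median log2 fold change 0.39), and 9 of the 12 were higher with counts scaled on transposable elements. Of 78 LTR rows, 59 were higher, with a median of 0.20. HERVL74-int, an internal part named after its human relatives, had only 41 and 38 reads in control and 82 and 97 in lactate. The groups did not overlap, and its log2 fold change was 1.09 (SE 0.23, 95% interval 0.53 to 1.66), with an adjusted p-value of 0.0724 by the quasi-likelihood test of edgeR and Benjamini-Hochberg adjustment and 0.143 by DESeq2. MERVL-int, MT2_Mm and HERVL74-int were the 3 ERVL rows with an adjusted p-value under 0.1 by the quasi-likelihood test of edgeR and Benjamini-Hochberg adjustment, where 3.51% of all rows were higher at that level. The other 9 internal rows besides MERVL-int, HERVL74-int and MERVL_2A-int included ERVL-int, with 57 and 62 reads in control and 114 and 88 in lactate and a log2 fold change of 0.69 (SE 0.25), and RMER15-int, at 0.07 (SE 0.14).

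For other internal parts with an LTR of the same name, the values did not come as a pair of differences. RMER15-int and RMER15 had log2 fold changes of 0.07 and 0.14, with SEs of 0.14 each. MER68-int had 0.69 with an SE of 0.40, beside 0.21 for MER68 and 0.32 for MER68B. ERV3-16A3_I-int had 0.28 and its LTR -0.06, and MER21-int had 0.03 beside 0.21 for MER21B and -0.07 for MER21C. None of these rows had an unadjusted p-value under 0.05.

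**Figure D4:**
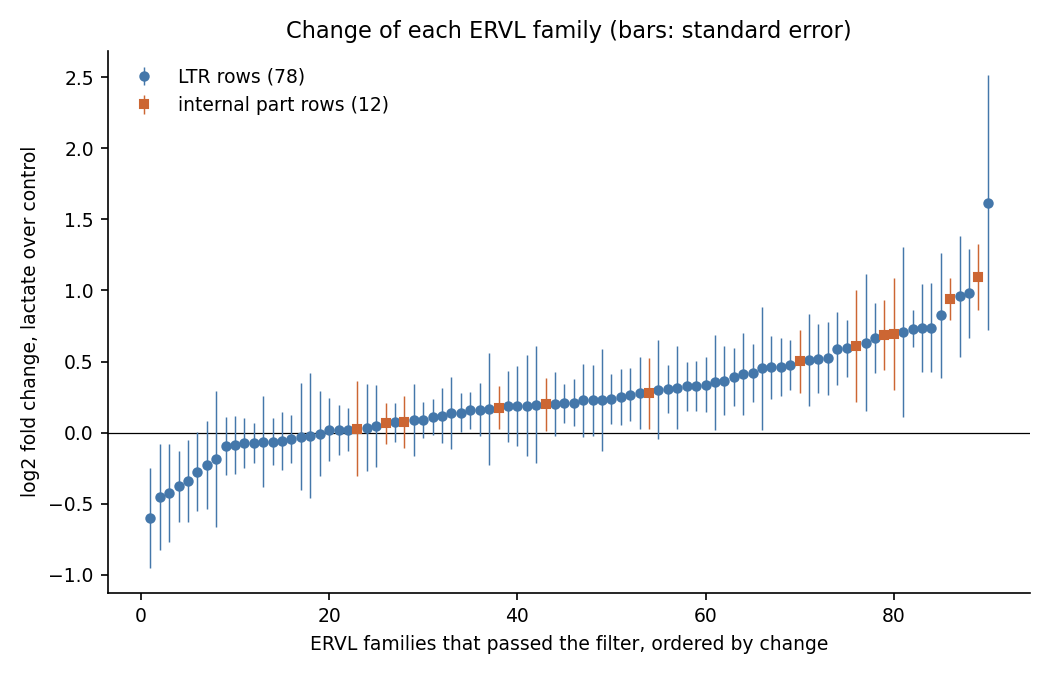
log2 fold change of lactate over control for the 90 ERVL rows tested, ordered by size, with bars for 1 standard error, circles for LTR rows and squares for internal parts. The squares all lie above 0, the row at the right end is LTR80A at 1.62, and 19 rows, all LTRs, lie below 0.

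The ERVL rows outside MERVL and MT2 with the most reads barely differed. RMER15, a rodent LTR, had 251 and 235 CPM in control and 280 and 254 in lactate, a log2 fold change of 0.14 (SE 0.14). RMER10A, at 126.7 and 88.0 CPM in control and 110.4 and 91.7 in lactate, had a log2 fold change of -0.09 (SE 0.21), and its libraries numbered 1 were the high ones in both groups. RMER10B and RLTR28 had log2 fold changes of -0.05 and -0.06, with SEs of 0.17 each. RMER10B and RLTR28 turned slightly positive with gene totals alone, and RMER15-int turned negative with counts scaled on transposable elements. By level, the 8 rows tested at 100 CPM or more had a median log2 fold change of 0.15 and a median SE of 0.14, the 16 rows from 10 to 100 CPM had a median of 0.15, the 58 rows from 1 to 10 CPM had 0.26 with a median SE of 0.26, and the 8 rows under 1 CPM had 0.40 with a median SE of 0.42.

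Most of the rows with the largest changes had few reads. LTR80A had 10 and 6 reads in control and 45 and 7 in lactate, so its log2 fold change of 1.62 (SE 0.89) rests on lactate replicate 1 and was -0.34 without it. LTR16D had 15 and 16 reads in control and 27 and 38 in lactate, without overlap and with a log2 fold change of 0.98 (SE 0.31). LTR40A1 had 20 and 11 reads in control and 38 and 26 in lactate, a log2 fold change of 0.96 (SE 0.42) that was 0.53 without control replicate 2, 0.59 without lactate replicate 1 and 1.504 without control replicate 1. By the quasi-likelihood test of edgeR and Benjamini-Hochberg adjustment, the adjusted p-values of LTR80A, LTR16D and LTR40A1 were 0.345, 0.146 and 0.252.

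At the other end, LTR53 had 76 and 133 reads in control and 51 and 94 in lactate, a log2 fold change of -0.60 (SE 0.35). The groups overlapped, and in both groups replicate 2 had more reads than replicate 1. Its log2 fold change was -0.23 without control replicate 2, -0.29 without lactate replicate 1, -0.92 without control replicate 1 and -1.06 without lactate replicate 2. LTR102_Mam, RLTR35B_MM, MER74B and LTR16A1 had log2 fold changes of -0.45, -0.42, -0.38 and -0.34, and no row that was lower had an unadjusted p-value under 0.05. RLTR35B_MM was at -0.06 without lactate replicate 2, -0.22 without control replicate 1 and -0.94 without lactate replicate 1. Besides MERVL-int, MT2_Mm, HERVL74-int, LTR16D and ERVL-int, the rows higher at an unadjusted p-value under 0.05 were LTR40c at a log2 fold change of 0.67, MLT2F at 0.59 and MER77 at 0.48. These and ERVL-int were named after their values were seen.

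The ERVL rows whose 4 values lay nearest to those of MERVL-int were HERVL74-int, MT2_Mm and LTR16D. Likeness was measured over the 4 libraries by the Euclidean distance between centred log2(CPM + 0.5) values, which was 0.175, 0.219 and 0.287. Among all transposable element rows tested, IAPEY2_LTR was the nearest, at 0.137. Tigger10, at 0.205, was also nearer than MT2_Mm. IAPEY2_LTR and Tigger10 lie outside ERVL and were named after their values were seen. Over 4 libraries in 2 groups, such a distance mainly reflects the difference between the groups.

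Genes of the 2-cell-like state were examined beside MERVL. Of a list of 41 cleavage-stage genes, which overlaps the genes that the study chose on these samples and is no independent evidence of a direction, 25 passed the filter and all 25 were higher, with a median log2 fold change of 1.46 against 0.02 over all rows tested. An unadjusted p-value under 0.05 was reached by 23, where 11.4% of all rows tested were higher at that level. edgeR called 2, Zscan4-ps2 and Gm8300, where 0.475% of all rows were called as higher. DESeq2 called 10, where 1.03% of all rows were called as higher. The 16 genes that did not pass had at most 18 reads in a library, and a gene such as Gm2022 passed through its lactate libraries alone. Among the 16, the mean CPM was higher in lactate in 12 and lower in 3 (Tcstv1, Tdpoz2 and Spz1), and Tdpoz1 had no read in any library. Summed over all 41 genes, the level was 41.3 and 37.1 CPM in control and 109.7 and 98.4 in lactate.

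Zscan4-ps2, a pseudogene of the Zscan4 cluster, had 29 and 33 reads in control and 122 and 100 in lactate, with a log2 fold change of 1.76 (SE 0.25) and an adjusted p-value of 0.0488 by the quasi-likelihood test of edgeR and Benjamini-Hochberg adjustment. Gm8300, on chromosome 12, had 22 and 24 reads in control and 76 and 85 in lactate, with a log2 fold change of 1.72 (SE 0.24) and the same adjusted p-value. In both genes the lactate libraries stood clear of the controls. Zscan4 genes encode zinc finger proteins of the 2-cell embryo that act at telomeres. The 9 Zscan4 genes of the list lie between 10794242 and 11614112 on chromosome 7 of GRCm38, and all had log2 fold changes between 0.99 and 1.76, with 8 at an unadjusted p-value under 0.05. The exception was Zscan4b, with 9 and 22 reads in control and 49 and 18 in lactate, whose log2 fold change of 1.05 was 0.08 without lactate replicate 1, 0.59 without control replicate 1, 1.74 without control replicate 2 and 1.62 without lactate replicate 2. Zscan4-ps3, at 0.99, was 0.64 without lactate replicate 1. Reads of near-identical Zscan4 or Usp17l copies can be assigned to the wrong member, so single values are uncertain. Zscan4c, which is also proposed to activate MERVL, had 5.08 and 3.10 CPM in control and 12.1 and 7.79 in lactate.

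The largest log2 fold changes of the list were in genes with few reads. Usp17la and Usp17ld, of a family of deubiquitinating enzymes, had log2 fold changes of 2.16 and 2.17, from 7 and 7 reads to 38 and 29, and from 4 and 3 reads to 23 and 11. Gm2022 had 1 read in each control library and 12 and 13 in the lactate libraries, a ratio of 11.8 with a 95% exact counting interval of 2.95 to 103. In the RSEM tables, where reads with several matches are shared out, Gm2022 had an FPKM of 0.55 and 0.00 in control and 0.40 and 0.57 in lactate, so its groups overlapped there.

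**Figure D5:**
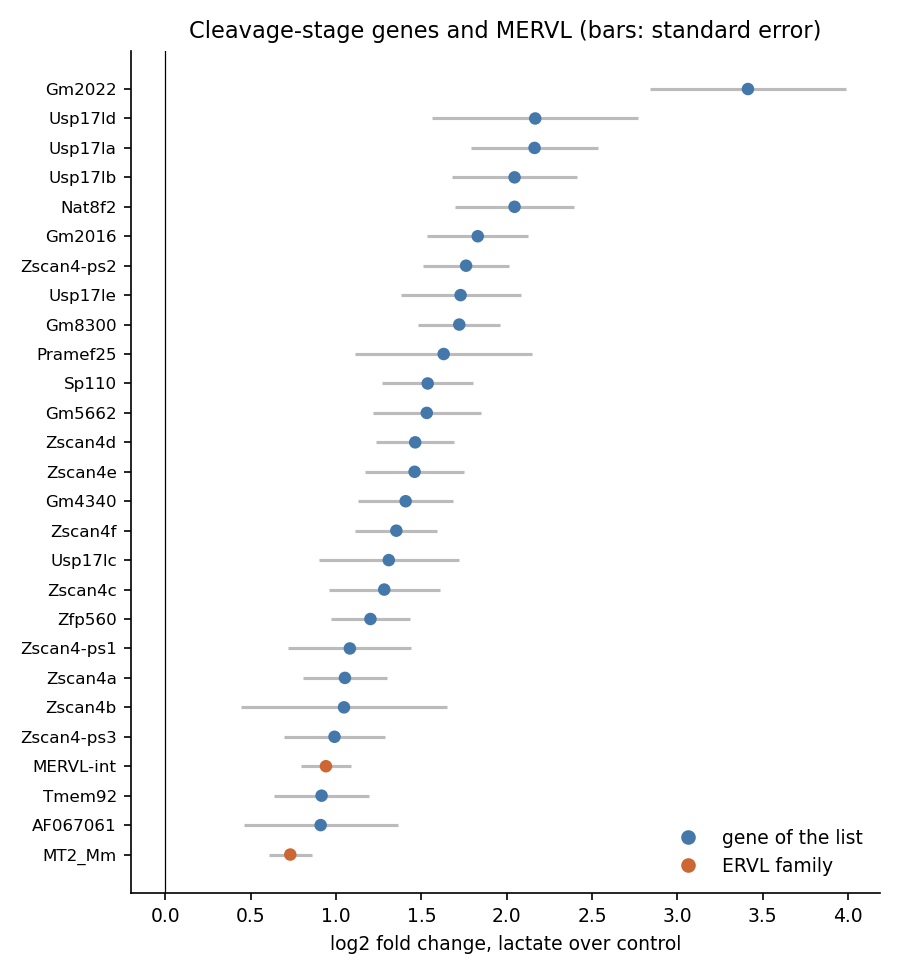
log2 fold change of lactate over control, with bars for 1 standard error, of the 25 cleavage-stage genes tested (blue) and of MERVL-int and MT2_Mm (orange). All points lie above 0, MERVL-int at 0.94 and MT2_Mm at 0.73 are at the low end of the range, and the fitted value of Gm2022 rests on 1 read in each control library.

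Among 12 genes known or proposed to activate MERVL or 2-cell genes, 9 were tested and 8 of them were higher. edgeR called none of the 9, where 0.796% of all rows tested were called. The transcription factor Dux, listed as Duxf3, had 3 and 2 reads in control and 4 and 5 in lactate, a ratio of 1.70 with a 95% exact counting interval of 0.513 to 6.47, so no difference could be detected at this depth. Dppa3, a maternal factor, had 71 and 37 reads in control and 142 and 90 in lactate, with a log2 fold change of 1.02 (SE 0.41) and an unadjusted p-value under 0.05, and its log2 fold change was 0.56 without control replicate 2, 0.57 without lactate replicate 1 and 1.62 without control replicate 1. Tet2, an enzyme that oxidises methylcytosine, had 335 and 242 CPM in control and 470 and 351 in lactate. Its log2 fold change of 0.51 (SE 0.22) was 0.25 without lactate replicate 1 and 0.29 without control replicate 2. The highest value for Tet2 with a library left out was 0.74. Unadjusted p-values under 0.05 were reached by Dppa3 and Zscan4c alone, where 11.4% of all rows tested were higher and 10.8% lower at that level. Zscan4c is also a member of the cleavage-stage list, so it is no independent evidence of a direction here. Dppa2 and Dppa4, which act upstream of Dux, had overlapping groups, with 72.1 and 54.7 CPM in control and 77.1 and 68.2 in lactate for Dppa2. Obox3 and Obox5 had no read in any library. The median log2 fold change of the 9 genes was 0.20.

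Of 46 genes whose proteins are known or proposed to silence MERVL or other retrotransposons in ESCs, 45 were tested. Of these, 16 were higher and 29 lower. edgeR called none, where 0.796% of all rows tested were called. The count of lower genes was 33 with counts scaled on transposable elements and 26 with gene totals alone. At an unadjusted p-value under 0.05, 11 of the 45 were lower and 2 higher, against 10.8% lower and 11.4% higher over all rows tested, and the median log2 fold change was -0.12, against 0.02. DESeq2 gave 3 an adjusted p-value under 0.05, all lower and none by more than 2-fold, where 2.82% of all rows were lower by that rule. They were Rcor2, Ehmt2 and Dnmt3b.

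Rcor2, a partner of the demethylase LSD1, had 205 and 189 CPM in control and 115.8 and 101.2 in lactate, with a log2 fold change of -0.86 (SE 0.14). Ehmt2, the histone methyltransferase G9a, had 132 and 167 CPM in control and 75.2 and 91.4 in lactate, with a log2 fold change of -0.84 (SE 0.18). Dnmt3b, a DNA methyltransferase, had 117.5 and 115.3 CPM in control and 75.6 and 79.1 in lactate, with a log2 fold change of -0.59 (SE 0.13). In all 3 genes both lactate libraries lay below both control libraries. Their adjusted p-values were 0.0546, 0.0711 and 0.0723 by the quasi-likelihood test of edgeR and Benjamini-Hochberg adjustment.

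Other genes of the silencer list differed by less. Trim28, the corepressor KAP1, had 1210 and 1449 CPM in control and 943 and 1024 in lactate, a log2 fold change of -0.44 (SE 0.16). Kdm1a, which encodes LSD1, had 366 and 349 CPM in control and 260 and 272 in lactate, a log2 fold change of -0.43 (SE 0.13). Zfp42, the REX1 factor, and Rif1 were the 2 genes higher at an unadjusted p-value under 0.05, with log2 fold changes of 0.52 and 0.47. Besides Rcor2, Ehmt2, Dnmt3b, Trim28 and Kdm1a, the genes lower at that level were Trp53, Max, Uhrf1, Daxx, Dnmt1 and Chaf1b. Their log2 fold changes were -0.51, -0.51, -0.50, -0.48, -0.46 and -0.37. Apart from Rcor2, Ehmt2 and Dnmt3b, the genes in this paragraph were named after their values were seen.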

How the data were processed

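RNA-seq was analysed in 2 control and 2 lactate libraries of AB2.2 cells, grouped by the treatment label. Per the labels and methods, the authors trimmed reads with cutadapt 1.16, mapped them to mm10 with STAR and used RSEM. They assessed differential expression with DESeq2, which is an alternative to edgeR here. The deposited matrix holds raw counts without normalization for 55335 genes and 1153 transposable element families. For each library the authors also deposited RSEM expected counts, rounded here to whole numbers, and FPKM. How transposable elements were counted, including the program, the use of strand and the treatment of reads with several matches, is not given in the sources used here, so reads of gene transcripts that hold a repeat may be among the ERVL counts.

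Counts of genes and families were fitted together in R 4.3.3 with edgeR 4.0.16 (quasi-likelihood test, legacy form, no replicate term, prior count 0.125) after filterByExpr, with TMM factors and library sizes from gene rows. Of the rows, 19593 passed (18661 genes and 932 families), with Benjamini-Hochberg adjustment over all of them. SE is the log2 fold change divided by the square root of F. Variation between libraries came to a common biological coefficient of 15.9%. DESeq2 1.42.0, other scalings, other filters, RSEM counts, a replicate term and libraries left out were alternatives. Replicates of a group differed by more than sampling noise. Chi-square divided by its degrees of freedom was 32.2 in control and 31.4 in lactate over genes. Over ERVL rows it was 3.76 in control and 4.51 in lactate. Counting intervals cover counting error only.

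Named rows are those that start with MERVL or MT2, those called, the 5 others with the highest CPM, the 5 largest and 5 smallest log2 fold changes, and the 3 nearest to MERVL-int; of gene lists, members called, Duxf3, Zscan4 genes and the 3 largest changes. Others named are Dppa2, Dppa4, Obox3 and Obox5, cleavage-stage genes that were lower or without a read, the rows of internal and LTR pairs, and those said to be named after their values were seen. The ERVL rows and all lists were chosen with earlier results of these data known. Gene positions come from GENCODE on GRCm38. Sequences of the repeats were not used here.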

Additional observations from a re-analysis of the deposited data

How the results depend on the processing

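With 2 libraries a group, the number of calls moved with the setting while the values of MERVL moved little. The log2 fold change of MERVL-int lay between 0.81 and 1.01 over 14 alternatives (0.86 to 0.98 with a library left out), with adjusted p-values from 3.1e-12 to 0.17, and that of MT2_Mm between 0.60 and 0.80 (0.69 to 0.74), with adjusted p-values from 3.0e-10 to 0.20. With gene totals alone MERVL-int reached 1.01 at an adjusted p-value of 0.0489 by edgeR's quasi-likelihood test. It was the 1 ERVL row called, in a fit that called 148 of all 19593 rows. Without a filter 1 ERVL row, HERVL74-int, was called, in a fit that called 788 of 34031 rows. That fit gave 3 ERVL rows an adjusted p-value under 0.05, against 4.61% of all rows. DESeq2 gave 2 at that level, where 1.73% of all rows were higher. With a library left out 1 group holds a single library, so the calls of those fits are not compared here. The calls on silencer genes stayed at 0 in all 15 alternatives. A call needs a more than 2-fold change, which no silencer gene reached in the main fit. Rcor2 came nearest, at a log2 fold change of -0.86. These counts of 0 thus do not show that the silencer values were stable.

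The replicate numbers shared by the groups are not said to mark a pairing. Same-numbered libraries deviated together (r = 0.64 over all rows, 0.33 over ERVL rows, across rows that are not independent). With the replicate block, 2 ERVL rows were called (HERVL74-int and LTR80A), in a fit that called 1175 of all 19593 rows. At an adjusted p-value under 0.05, 25 ERVL rows were higher (among them MERVL-int, MT2_Mm, MERVL_2A-int and MT2B) and 1, LTR53, lower. That fit gave 44.1% of all rows such a value. The cleavage-stage list then had 22 genes called and the activator list 2.

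The cleavage-stage list had 2 genes called, but 0 with scaling on transposable element rows, 19 without a filter, 1 with at least 10 counts in every library, 10 by DESeq2, 0 with RSEM expected counts and 1 to 20 with a library left out (1 without control replicate 1, 5 without control replicate 2, 14 without lactate replicate 1, 20 without lactate replicate 2). The activator list had 1 called without a filter, 1 by DESeq2 and 0 to 2 with a library left out. The summed ERVL log2 ratio was 0.42, and 0.48 with gene totals, 0.35 as a share of transposable element counts, 0.37 to 0.46 with a library left out and 0.12 without MERVL-int and MT2_Mm, an alternative chosen after the data were seen. The cause of these differences was not tested.

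Scaling on transposable element rows shifted the median log2 fold change of all rows by -0.13, and gave -0.056 for MT2A, -0.11 for MT2B1, -0.046 for MT2B2, -0.027 for MT2C_Mm and -0.066 for RMER15-int. No row of the whole table was called under that scaling, and with gene totals alone 73.0% of all calls were higher, against 59.6%. Gene totals gave 0.022 for RMER10B and 0.0037 for RLTR28, and no filter gave -0.022 for MT2B1. With a library left out, the range was -0.016 to 0.15 for MT2A, -0.12 to 0.13 for MT2B1, -0.33 to 0.18 for RMER10A, -0.22 to 0.12 for RMER10B, -0.21 to 0.072 for RLTR28, -0.041 to 0.14 for RMER15-int, -0.34 to 2.43 for LTR80A, -0.54 to -0.23 for MER74B, -0.54 to -0.19 for LTR16A1 and -0.61 to -0.29 for LTR102_Mam. Families under 1 CPM rest on few reads, with a median SE of 0.42.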
